A study of Mus musculus with 3 samples.

Results

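The semaphorin, ephrin, Slit and netrin guidance genes were examined in sorted cells of the mouse ankle synovium, grown for 24 h on plates with a stiffness of 0.2, 8 or 64 kPa. Members were taken by symbol: all semaphorins but 1, all plexins, Eph receptors and ephrins, both neuropilins, Slit1 to Slit3, Robo1 to Robo4, Ntn1, Ntn4 and Unc5a to Unc5d. They came to 65 of the 56833 genes in the table. The cells came from Efhd1CreER; Ai9 mice, in which an inducible Cre recombinase named for Efhd1 switches on the tdTomato reporter of Ai9, and were sorted for tdTomato. The labels call them telocytes, an interstitial cell type with long thin processes, and give neither the age, the number of animals nor any pooling. All 3 groups share this genotype, the sort, the collagen coating and the culture time, and differ in the stiffness of the plate, called soft (0.2 kPa), intermediate (8 kPa) and stiff (64 kPa) here. The series title states the question as one of how matrix stiffness acts on the differentiation of these cells toward fibroblasts. Each level had a single library (n = 1). No value therefore has a replicate check, no test across cultures could be made, and a difference between cultures cannot be told apart from a difference between stiffness levels.

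Guidance molecules were first known for steering growing axons, and most act in many other tissues. Semaphorins signal through plexins, and the secreted class 3 semaphorins mostly need a neuropilin as co-receptor, which also binds VEGF. Ephrins are bound to the cell membrane and activate Eph receptor tyrosine kinases on neighbouring cells, and the ephrin-bearing cell can signal in return. Slits are large secreted proteins read by Robo receptors, and netrins are laminin-like proteins read by DCC, neogenin and the Unc5 receptors. In mesenchymal cells these families are known for cell repulsion and adhesion.

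The libraries held 25487064 (soft), 28081600 (intermediate) and 26474862 (stiff) reads, and the 65 guidance genes took 0.175%, 0.207% and 0.212% of them. All 8 synovial fibroblast markers had a mean over the 3 libraries of at least 4349 normalized counts, the deposited unit, which is a read count divided by a size factor of its library. Of the 5 telocyte markers, Efhd1 had 10, 5 and 3 reads at 0.2, 8 and 64 kPa, and Kit was low at 42.0, 38.7 and 45.1 normalized counts. The other 3 were expressed, with Vim at 94005, 103009 and 111934, Pdgfra at 5884, 6298 and 5118 and Cd34 at 235, 242 and 318 normalized counts. All 12 macrophage markers were present and higher in the stiff than in the soft library, and summed to 30969.8, 38043 and 66334 normalized counts at 0.2, 8 and 64 kPa. None of the macrophage markers was at 0. The 8 endothelial markers summed to 61.5, 83.0 and 89.2 normalized counts, with Cldn5 at 0. Only 3 of these 8 were higher in the stiff than in the soft library, and the highest mean was 31.0 (Kdr). In bulk RNA, fewer cells of a type and less RNA per cell cannot be told apart.

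Of the 65 guidance genes, 47 had a mean over the 3 libraries of at least 50 normalized counts and are compared below, and 18 did not. Compared per kilobase of the canonical transcript, the most abundant by mean level was Unc5b, a netrin receptor, at 1639 normalized counts per kb. Plxnb2 (920.2), Nrp2 (903), Efnb1 (730.0), Nrp1 (667) and Sema7a (542 normalized counts per kb) followed. Receptors made up the larger part of these 47, with a summed level over 20 genes of 4935, 5892 and 6338 normalized counts per kb at 0.2, 8 and 64 kPa. The 27 ligands summed to 3185, 3687 and 3494 normalized counts per kb, without the semaphorin not taken as a member. The Eph receptors Epha6, Epha10 and Ephb1 and the semaphorin Sema5b had no read in any library. With 0 reads, a level of up to 3 reads is still allowed, or 3.08, 2.83 and 3.08 normalized counts at 0.2, 8 and 64 kPa. Epha5, Epha8, Robo4, Unc5d, Efnb3 and Plxnb3 had at most 5 reads in each library. The other 8 genes below the minimum were Epha1, Epha4, Epha7, Robo2, Robo3, Slit1, Sema3g and Sema6a.

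**Figure D1:**
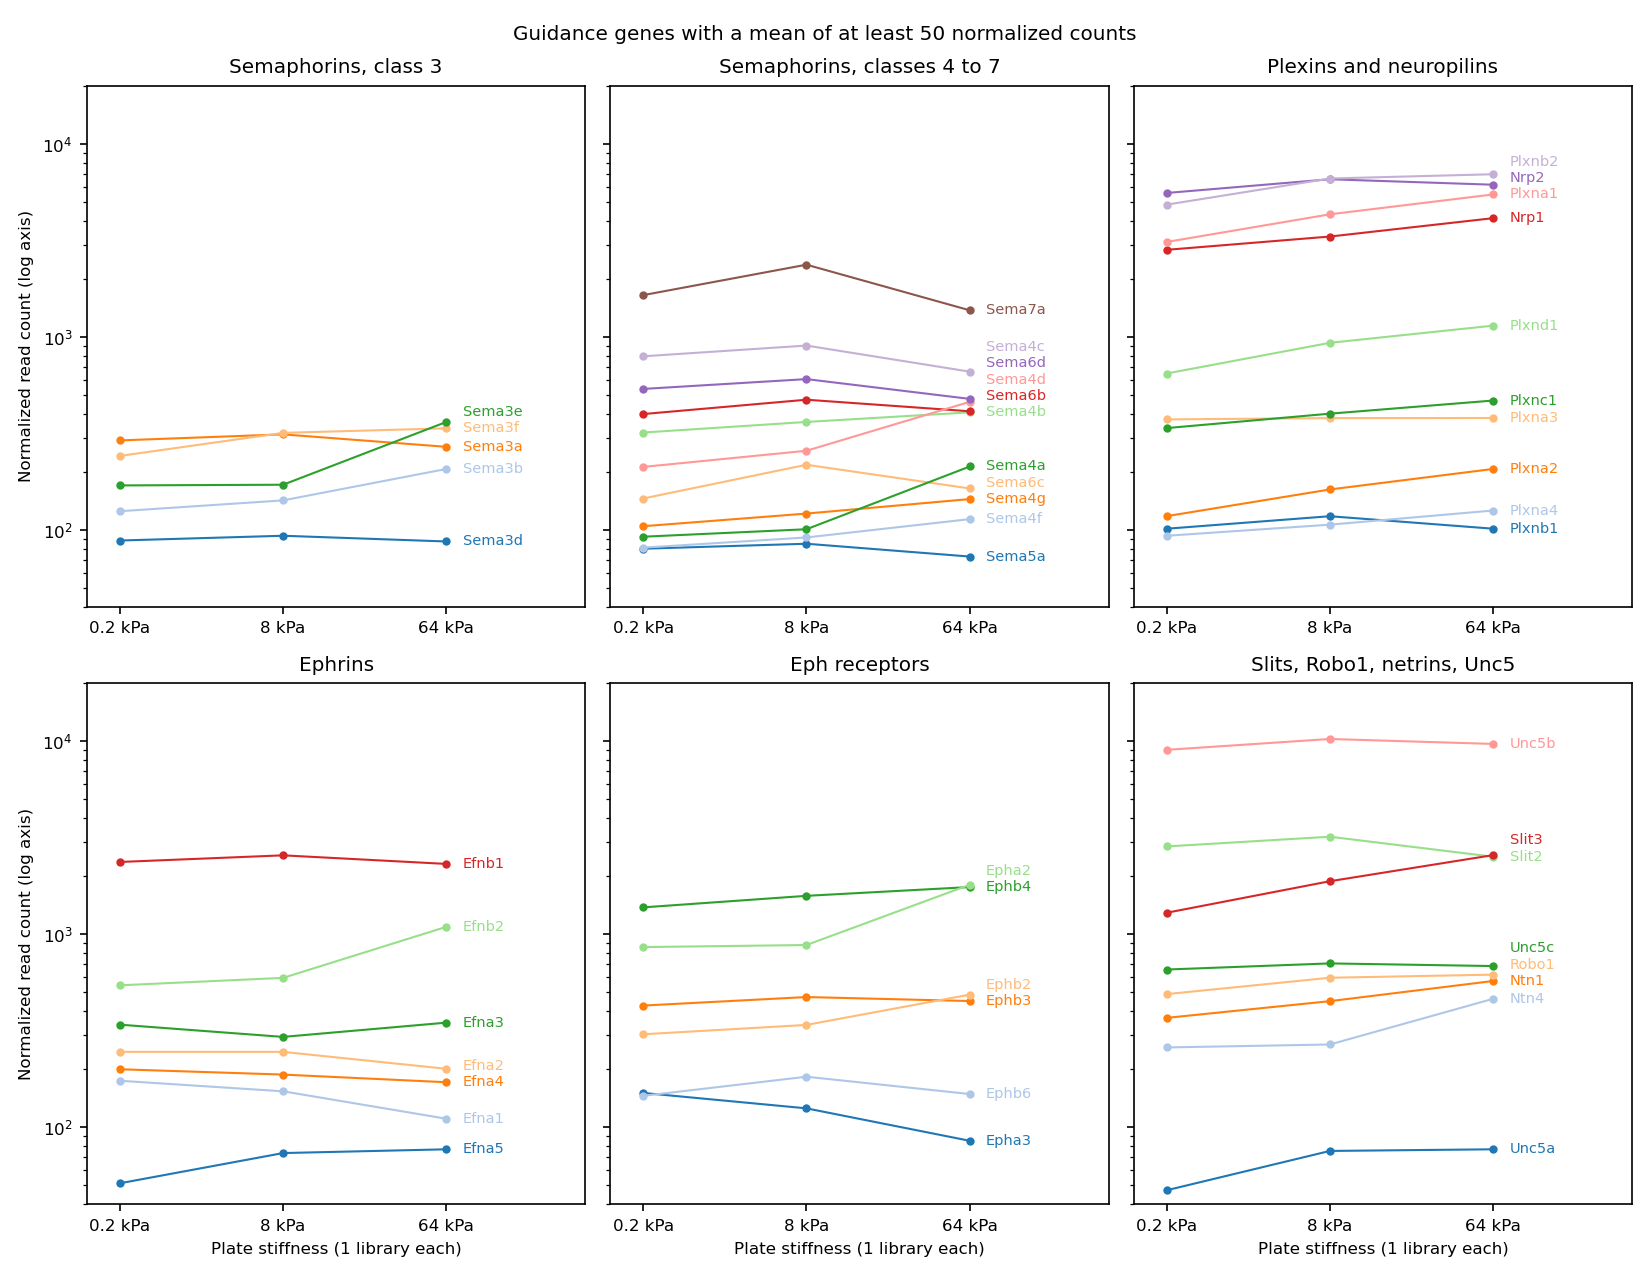
Normalized read counts (log axis) of the 47 guidance genes with a mean of at least 50, in the 0.2, 8 and 64 kPa libraries, with 1 point per library and 1 line per gene. Epha2, Efnb2, Sema3e, Sema4a and Ntn4 differ by at most 0.13 (log2) between 0.2 and 8 kPa and stand higher at 64 kPa, Sema4d is higher by 0.28 at 8 kPa and again at 64 kPa, while Plxna1, Plxnd1 and Slit3 climb over both steps and Sema7a is highest at 8 kPa.

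Between the stiff and the soft library the guidance genes lay mostly on the high side. Sema4a, Sema4d, Sema3e, Epha2 and Efnb2 were at least 2-fold higher in the stiff library, and none was 2-fold lower, against 3.22% and 0.387% of all genes. That is 5 of the 47 genes (10.6%) at a log2 ratio of at least 1 in size, computed with a pseudocount of 1, against 3.6% of the 11873 genes of the table with the same minimum. At a log2 ratio of at least 0.5, 17 guidance genes were higher and 2, Epha3 and Efna1, were lower. Over all genes 11.8% were higher and 3.77% lower at that size, 15.6% in all. Above 0 lay 35 of the 47, against 51.1% of all genes. The median log2 ratio was 0.35 over the guidance genes and 0.00 over all genes.

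Over all genes the stiff to soft ratio went with the length and GC content of the transcripts, and the guidance genes are longer and richer in GC than most. The median canonical transcript was 5255 nt with 55.5% GC for the 47 guidance genes and 3486 nt with 50.1% GC for 11630 genes of the table. Across those genes, which share the same 2 libraries, the stiff to soft ratio had a Spearman correlation of 0.26 with length and of 0.26 with GC content. Within the 47 guidance genes the coefficients were 0.16 for length and 0.0071 for GC. When the trend over all genes was subtracted, the median of the guidance genes went from 0.35 to -0.02, and 15 of the 47 changed sign. Above 0 lay 22 of the 47 after the subtraction, against 49.5% of all genes treated alike. At 0.5 in size, 8 genes were then higher and 4 lower, against 7.64% and 3.97% of all genes. At 1 in size Sema3e (1.16) and Sema4a (1.04) remained, against 2.49% of all genes, with Sema4d at 0.996, just under it. What gave rise to the trend was not tested.

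**Figure D2:**
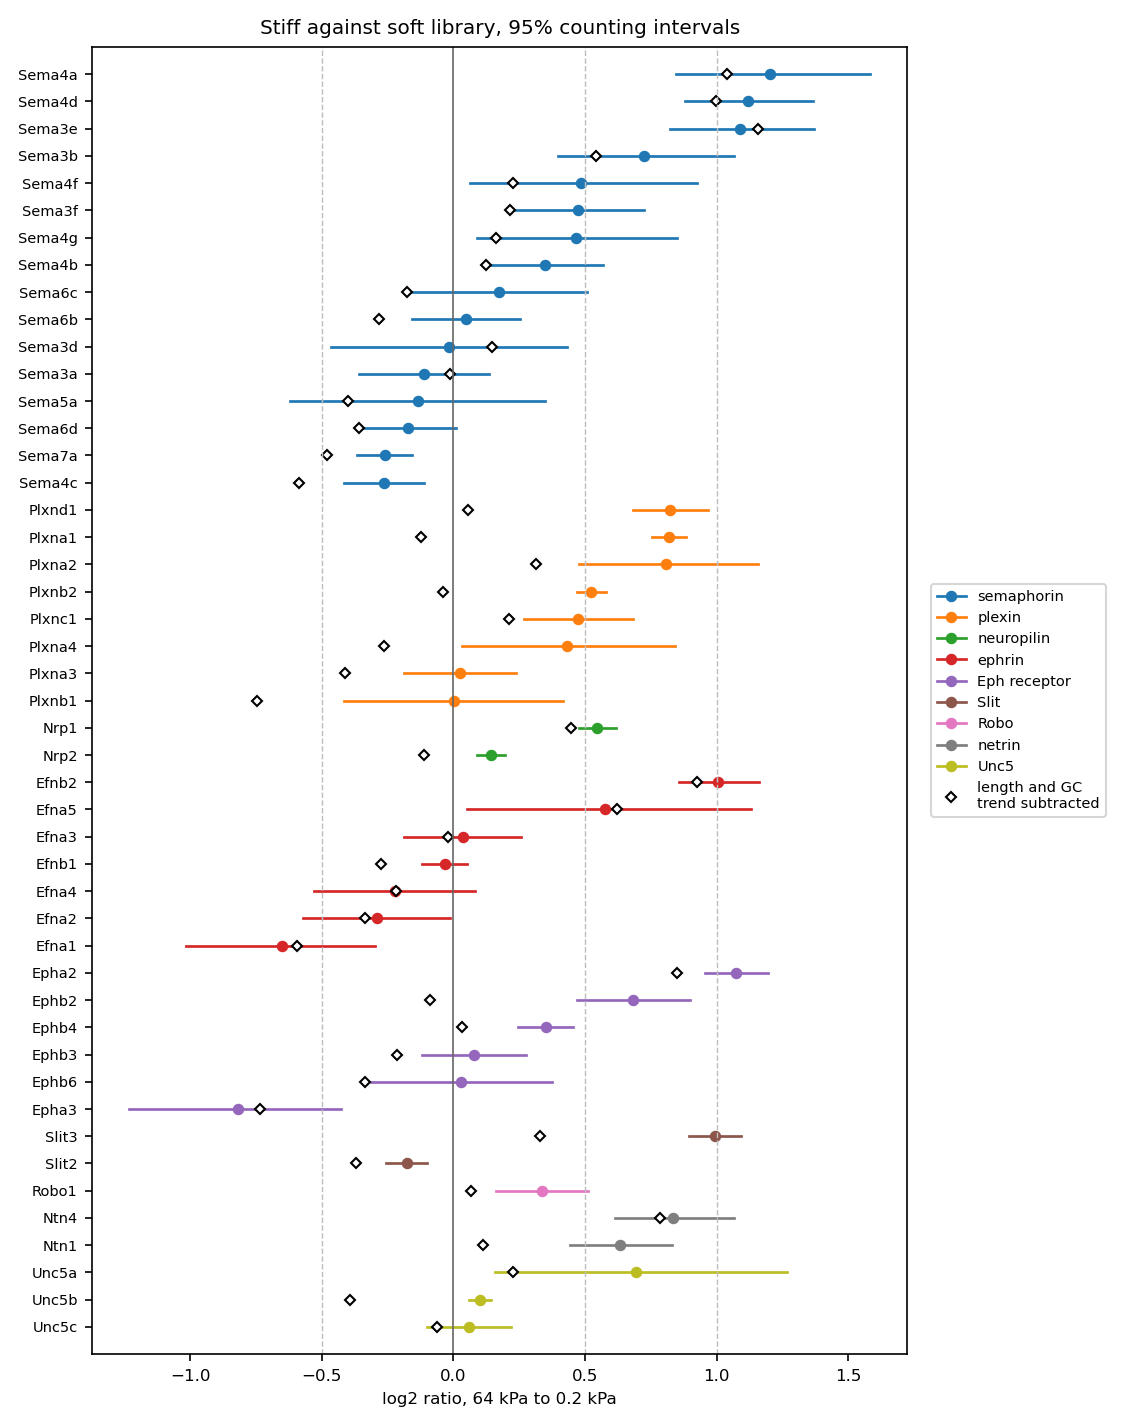
Log2 ratio of the 64 kPa to the 0.2 kPa library for each of the 47 genes, coloured by role, with lines for the 95% counting interval and open diamonds for the ratio after the length and GC trend was taken off. The diamonds of the plexins lie well to the left of their points, as for Plxna1 at 0.82 and -0.12, while those of Efnb2, Sema3e and Sema4a stay at 0.92 or above.

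The 17 genes at 0.5 or more divided by where along the stiffness series the difference arose, a grouping made after their values were seen. In 8 of them (Sema3e, Epha2, Ntn4, Sema4a, Efnb2, Ephb2, Sema4d and Sema3b) the intermediate library had covered between 1.07% and 25.6% of the log2 difference between soft and stiff. In the other 9 (Nrp1, Ntn1, Slit3, Plxna2, Plxna1, Plxnd1, Plxnb2, Efna5 and Unc5a) it had covered between 42.0% and 96.0%. Plxnb2, Efna5 and Unc5a, at 85.9% or more, hardly differed between intermediate and stiff, with log2 ratios of 0.07, 0.06 and 0.03. The canonical transcripts of the first group had a median length of 4220.5 nt and those of the second 6688 nt. With the length and GC trend subtracted, 7 of the 8 stayed at 0.5 or more, all but Ephb2, against 1 of the 9, Efna5. Of the 1402 genes of the table higher by at least 0.5, 27.5% had under 30% of the difference at 8 kPa, against 47.1% of the 17 guidance genes. After the subtraction 75.6% of the genes of the table under 30% and 53.0% of the others stayed at 0.5 or more. The 7 of 8 (87.5%) lie near the first share, and the 1 of 9 (11.1%) lies below the second. All of these comparisons share libraries, so the shares are given as a description.

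**Figure D3:**
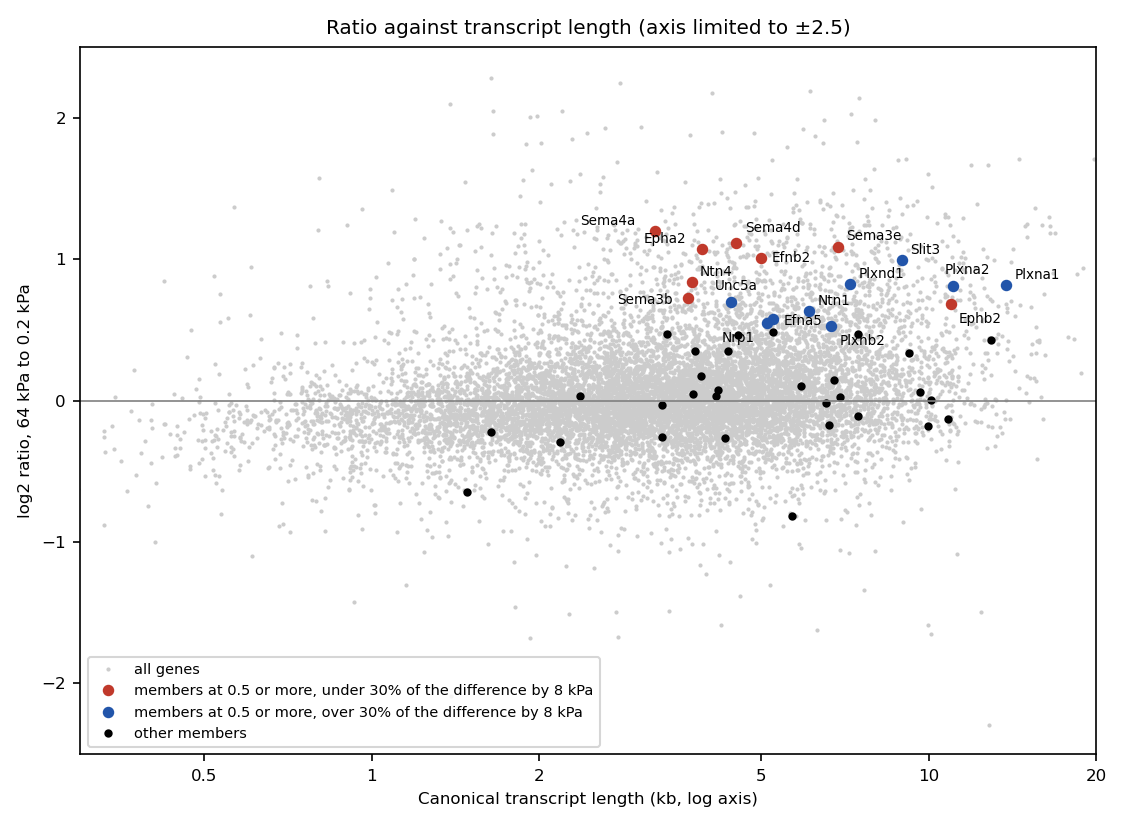
Log2 ratio of the 64 kPa to the 0.2 kPa library against canonical transcript length (kb, log axis) for genes of the table with a mean of at least 50 (grey) and the 47 guidance genes. Red points mark the 8 genes with under 30% of the log2 difference present at 8 kPa, with a median length of 4220.5 nt, blue points the 9 with more than that, and black points the other members.

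The 6 guidance genes with the highest stiff to intermediate ratio were Sema3e, Sema4a, Epha2, Efnb2, Sema4d and Ntn4. Since these genes were higher in the same library, the sequence around the transcription start is shown for those whose RefSeq window lay within 200 nt of the canonical start. This held for 5 of the 6, all but Sema4d, whose 3 windows lay farther away. Each window runs from 250 bases before to 50 bases after the RefSeq start, taken from a RefSeq table of GRCm38.p6 and placed by exact match on GRCm39, the build in the submitters' processing notes. The positions are chr5:14075040-14075339 on the plus strand for Sema3e, chr3:88363019-88363318 on the minus strand for Sema4a, chr4:141028282-141028581 on the plus strand for Epha2, chr8:8711193-8711492 on the minus strand for Efnb2 and chr10:93476661-93476960 on the plus strand for Ntn4. Capitals mark matches on either strand to GGAATG (bound by TEAD factors), TGANTCA (AP-1), GGGCGG (the GC box) and the CArG box of SRF.
Sema3e: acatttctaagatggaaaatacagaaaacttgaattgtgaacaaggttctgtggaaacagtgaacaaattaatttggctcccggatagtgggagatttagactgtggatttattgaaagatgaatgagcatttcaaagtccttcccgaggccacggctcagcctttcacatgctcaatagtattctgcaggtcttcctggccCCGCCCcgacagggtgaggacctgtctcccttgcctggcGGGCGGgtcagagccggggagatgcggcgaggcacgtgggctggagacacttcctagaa
Sema4a: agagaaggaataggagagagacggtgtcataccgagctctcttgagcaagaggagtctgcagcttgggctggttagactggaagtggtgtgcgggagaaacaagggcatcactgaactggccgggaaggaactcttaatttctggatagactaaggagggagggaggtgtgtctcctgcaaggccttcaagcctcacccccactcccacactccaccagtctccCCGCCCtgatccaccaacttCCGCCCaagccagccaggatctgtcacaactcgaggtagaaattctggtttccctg
Epha2: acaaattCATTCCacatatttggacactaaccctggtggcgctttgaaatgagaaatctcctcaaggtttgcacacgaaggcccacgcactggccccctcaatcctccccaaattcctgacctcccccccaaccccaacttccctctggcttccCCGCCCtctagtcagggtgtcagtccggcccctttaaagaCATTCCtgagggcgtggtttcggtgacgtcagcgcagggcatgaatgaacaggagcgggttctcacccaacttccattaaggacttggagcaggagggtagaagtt
Efnb2: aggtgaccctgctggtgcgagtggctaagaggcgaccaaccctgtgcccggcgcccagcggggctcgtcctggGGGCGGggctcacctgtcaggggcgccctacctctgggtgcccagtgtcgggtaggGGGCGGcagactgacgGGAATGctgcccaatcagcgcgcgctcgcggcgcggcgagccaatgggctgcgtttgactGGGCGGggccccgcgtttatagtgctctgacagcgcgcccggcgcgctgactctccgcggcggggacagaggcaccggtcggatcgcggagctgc
Ntn4: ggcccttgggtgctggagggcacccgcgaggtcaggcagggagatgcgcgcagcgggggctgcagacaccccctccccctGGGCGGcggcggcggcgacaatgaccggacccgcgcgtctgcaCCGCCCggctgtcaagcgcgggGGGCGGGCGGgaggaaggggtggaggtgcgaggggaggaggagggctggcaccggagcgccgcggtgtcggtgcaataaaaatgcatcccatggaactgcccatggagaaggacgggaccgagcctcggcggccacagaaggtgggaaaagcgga
Epha2 held 2 matches to GGAATG and Efnb2 held 1, and the windows shown for Sema3e, Sema4a and Ntn4 held none. Sema4a has 3 further windows, at least 3119 nt from the canonical start, and 1 of them held GGAATG. No match to the AP-1 motif or the CArG box was found in the 5 windows shown, while 1 of the 3 windows of Sema4d held a match to each. The GC box had between 1 and 4 matches in each of them, and 2 of the 4 in Ntn4 overlap each other. Of all 32851 RefSeq windows, 14.7% held GGAATG, 7.81% TGANTCA, 35.7% the GC box and 1.63% the CArG box. In the 55 windows of the 42 compared guidance genes with an entry, the shares were 10.9%, 5.45%, 74.5% and 3.64%. The median GC content was 64.7% in those 55 windows and 52.7% in all windows. A match is a run of letters and not a measured binding site.

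Among the semaphorins, 16 of 19 genes were compared, and 10 were higher and 6 lower in the stiff than in the soft library, against 51.1% of all genes above 0. With total-read or upper-quartile scaling Sema6b also lay below 0. Subtracting the length and GC trend put Sema6b (-0.28) and Sema6c (-0.18) below 0 and Sema3d (0.15) above it. The 3 that reached a log2 ratio of 1 are ligands known for different partners. Sema3e (chromosome 5, 14075290 to 14306719, plus strand, 17 exons), a secreted ligand that binds Plxnd1 without needing a neuropilin, had 170.2 normalized counts at 0.2 kPa, 171.6 at 8 kPa and 363 at 64 kPa. The soft and intermediate values were nearly equal and the stiff library stood alone. This is a stiff to soft log2 ratio of 1.09 (counting interval 0.82 to 1.37). Sema4a (chromosome 3, 88343262 to 88372558, minus strand, 15 exons), a membrane semaphorin known from immune cells, had 92.3, 100.9 and 213 normalized counts in the same order. The log2 ratio of stiff to soft came to 1.20 (counting interval 0.85 to 1.58). Sema4d (chromosome 13, 51836318 to 51947922, minus strand, 16 exons), the ligand of Plxnb1 and also known as CD100 on leukocytes, had 212, 257 and 461 normalized counts. Stiff against soft gave a log2 ratio of 1.12 (counting interval 0.88 to 1.37). Exons of Secisbp2 on the opposite strand cover 13.7% of the exonic bases of Sema4d, and Secisbp2 had 238, 215 and 329 normalized counts. Whether the counting used strand is not given in the sources used here, so reads of the 2 genes might not be told apart.

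Macrophage markers were higher in the stiff library by a similar size, which stands beside the values of the 2 semaphorins known from leukocytes. The stiff to soft log2 ratios of the 12 markers ran from 0.31 (Cd14) to 1.49 with a median of 1.25, and 9 of them reached 1. Their median was 0.38 for the first step, from 0.2 to 8 kPa, and 0.79 for the second. The part of macrophage RNA in the values of Sema4a, Sema4d and the other guidance genes was not tested.

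**Figure D4:**
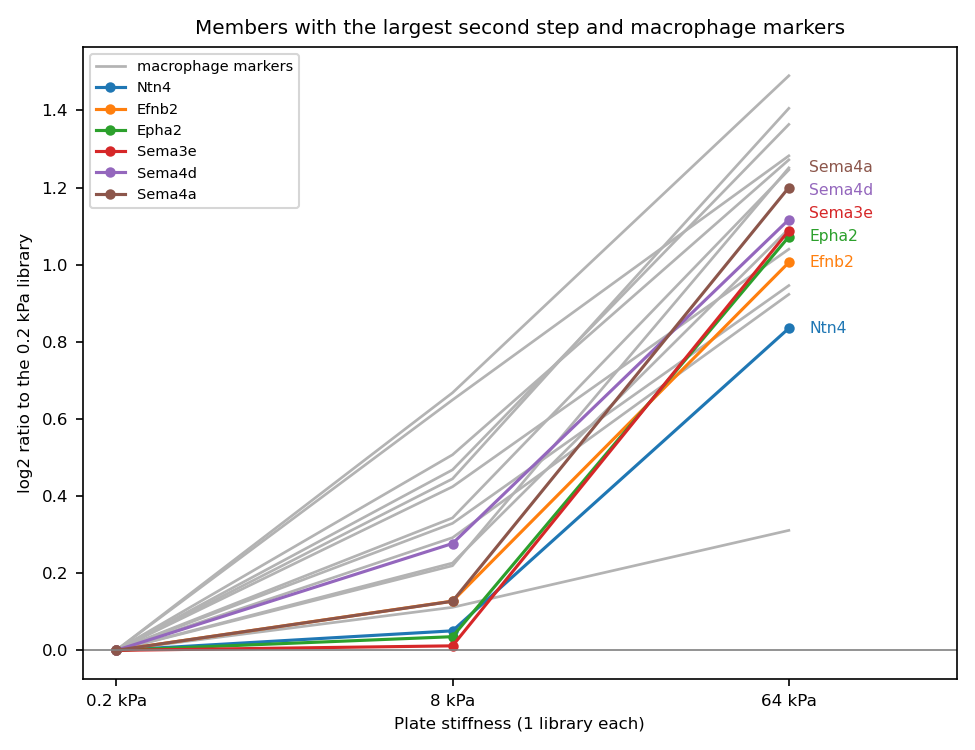
Log2 ratio to the 0.2 kPa library, by plate stiffness, for the 6 guidance genes with the highest stiff to intermediate ratio (coloured, points for single libraries) and the 12 macrophage markers (grey). At 64 kPa the 6 genes lie between 0.84 and 1.20 and the markers between 0.31 and 1.49, and at 8 kPa the 6 genes lie between 0.01 and 0.28 and the markers between 0.11 and 0.67.

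Sema7a, a GPI-anchored semaphorin that binds integrins and Plxnc1, was the most abundant of the compared semaphorins per length by mean level and followed another course. It had 1648 normalized counts at 0.2 kPa, 2371 at 8 kPa and 1375 at 64 kPa, so the intermediate library was the highest. The log2 ratio was 0.52 between intermediate and soft (counting interval 0.43 to 0.62) and -0.79 between stiff and intermediate (counting interval -0.88 to -0.69). It was the only one of the 47 guidance genes (2.13%) with the intermediate library above both others by at least 0.5, against 0.354% of all genes. This call was lost with upper-quartile scaling, at 0.49 between intermediate and soft, and with the trend subtracted, at 0.42. Sema4c and Sema6d, both membrane semaphorins, had the same order with smaller distances. Sema4c had 795, 903 and 661 normalized counts, and Sema6d had 538, 605 and 478. Sema3b, a secreted semaphorin known as a growth suppressor in tumours, had 125, 142 and 207 normalized counts, with a stiff to soft log2 ratio of 0.72 (counting interval 0.40 to 1.06). The remaining 9 compared semaphorins had stiff to soft log2 ratios between -0.13 and 0.49. Sema4g, at 0.46, shares 12.7% of its exonic bases with Mrpl43 on the opposite strand, which had 1269 normalized counts in the soft library.

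Of the 8 compared plexins, the receptors of the semaphorins, 7 stood higher in the stiff than in the soft library, by very unequal amounts, against 51.1% of all genes above 0. Plxnb1 had 99 reads in both, and its ratio of 0.00 is counted above 0 in the tallies by the difference in size factors. Scaled by total reads or by the upper quartile, Plxna3 and Plxnb1 lay below 0. With the length and GC trend subtracted, Plxnb2, Plxna1, Plxna3, Plxna4 and Plxnb1 lay below 0, which left 3 of 8 above it, against 49.5% of all genes. Plxna1 (chromosome 6, 89288589 to 89339619, minus strand, 32 exons), a receptor for class 3 and class 6 semaphorins, had 3109 normalized counts at 0.2 kPa, 4325 at 8 kPa and 5483 at 64 kPa. The 3 values followed the order of stiffness. This is a stiff to soft log2 ratio of 0.82 (counting interval 0.75 to 0.88), and -0.12 with the trend subtracted. Its transcript of 13758 nt was the longest of all 47. Plxnd1, the receptor of Sema3e, had 647, 933 and 1145 normalized counts and a log2 ratio of 0.82 (counting interval 0.68 to 0.97), which was 0.06 with the trend subtracted. Plxna2 had 118, 162 and 207 normalized counts and a log2 ratio of 0.81, or 0.31 with the trend subtracted. Plxnb2, a receptor of class 4 semaphorins and the most abundant plexin per length, had 4853, 6631 and 6979 normalized counts, so most of its difference lay in the first step. Its stiff to soft log2 ratio was 0.52 (counting interval 0.47 to 0.58), and -0.04 with the trend subtracted. Plxnb1, the best known receptor of Sema4d, was low, at 101.5, 117.8 and 101.5 normalized counts. Its stiff to soft log2 ratio of 0.00 came to -0.75 with the trend subtracted. Plxnc1, the receptor of Sema7a and also found on leukocytes, had 337, 401 and 469.

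Both neuropilins were abundant, and they differed from each other in course. Nrp1 (chromosome 8, 129085085 to 129231082, plus strand, 17 exons), co-receptor for Sema3a and VEGF-A, had 2831 normalized counts at 0.2 kPa, 3317 at 8 kPa and 4131 at 64 kPa. The log2 ratio of stiff to soft came to 0.55 (counting interval 0.48 to 0.62), and 0.45 with the length and GC trend subtracted. Nrp2, co-receptor for Sema3f and VEGF-C, had 5579, 6572 and 6157 normalized counts, with the highest value in the intermediate library. Its stiff to soft log2 ratio was 0.14, or -0.11 with the trend subtracted.

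Between stiff and soft 3 of 7 compared ephrins lay above 0 and 4 below, close to the 51.1% of all genes above 0. With total-read or upper-quartile scaling, or with the length and GC trend subtracted, Efna3 also lay below 0. Efnb2 (chromosome 8, 8667226 to 8711249, minus strand, 5 exons), the transmembrane ligand of Ephb4 and other B-type receptors, had 544 normalized counts at 0.2 kPa, 595 at 8 kPa and 1094 at 64 kPa. The stiff value lay far above both others. Stiff against soft gave a log2 ratio of 1.01 (counting interval 0.86 to 1.16), and 0.92 with the length and GC trend subtracted. With total-read or upper-quartile scaling it was 0.95, below the 2-fold line. Efnb1, the most abundant ephrin per length, had 2372, 2568 and 2318 normalized counts and a log2 ratio of -0.03 (counting interval -0.12 to 0.05). Among the GPI-anchored A-type ephrins, Efna1, a ligand of Epha2, had 174, 154 and 111 normalized counts and was lowest in the stiff library. In log2 terms stiff to soft came to -0.65 (counting interval -1.02 to -0.30), and -0.59 with the trend subtracted. Efna2, Efna3 and Efna4 had log2 ratios of -0.29, 0.03 and -0.22. Efna5 had 51.3, 73.5 and 76.9 normalized counts, and its log2 ratio of 0.58 had a wide counting interval from 0.05 to 1.13.

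Of 14 Eph receptors 6 were compared. Epha2 (chromosome 4, 141028540 to 141056695, plus strand, 17 exons), an A-type receptor that is found on many epithelial and tumour cells, had 859 normalized counts at 0.2 kPa, 880.5 at 8 kPa and 1808 at 64 kPa. Again soft and intermediate were close and the stiff library stood apart. This is a stiff to soft log2 ratio of 1.07 (counting interval 0.95 to 1.19), and 0.85 with the length and GC trend subtracted. Between intermediate and soft it was 0.04 (counting interval -0.10 to 0.17). Epha3 (chromosome 16, 63363897 to 63684538, minus strand, 17 exons), another A-type receptor, went the other way, with 150.7, 125.4 and 85.1 normalized counts. Its stiff to soft ratio was the lowest of all 47 guidance genes, at -0.82 (counting interval -1.23 to -0.43). With the trend subtracted it was -0.74, and Plxnb1 lay lower at -0.75. Ephb4, the receptor of Efnb2, was the most abundant Eph receptor per length by mean level, at 361 normalized counts per kb against 301 for Epha2. In the stiff library Epha2 was the higher, at 461 against 404 for Ephb4. Ephb4 had 1380, 1584 and 1759 normalized counts and a log2 ratio of 0.35 (counting interval 0.25 to 0.45), or 0.03 with the trend subtracted. Ephb2 had 303, 339 and 487 normalized counts. Stiff against soft gave a log2 ratio of 0.68, and -0.09 with the trend subtracted. Its transcript of 10954 nt is the longest of the 6. Ephb3 and Ephb6, the latter lacking kinase activity, had ratios of 0.08 and 0.03, or -0.22 and -0.33 with the trend subtracted.

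Slit2 and Slit3, close relatives, differed in course. Slit3 (chromosome 11, 35011789 to 35602786, plus strand, 36 exons) had 1294 normalized counts at 0.2 kPa, 1885 at 8 kPa and 2575 at 64 kPa. Its log2 ratio of 0.99 (counting interval 0.89 to 1.09) lay just under the 2-fold line, and was 0.33 with the length and GC trend subtracted. Slit2 (chromosome 5, 48140480 to 48465075, plus strand, 36 exons) had 2855, 3207 and 2525 normalized counts and was lowest in the stiff library, with a log2 ratio of -0.18 (counting interval -0.26 to -0.10) and -0.37 with the trend subtracted. Their transcripts are alike in length, at 8942 nt and 9960 nt, and Slit3 has the higher GC content, 53.9% against 45.5%. In the soft library Slit2 had 287 normalized counts per kb and Slit3 145, while in the stiff library they had 253 and 288. Robo1, the one Slit receptor compared, had 490.0, 596 and 618 normalized counts and a log2 ratio of 0.33, or 0.06 with the trend subtracted. Robo4, known from endothelium, had 1 read in all.

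Of the netrins, Ntn4 (chromosome 10, 93476543 to 93583069, plus strand, 10 exons), a basement membrane netrin that binds laminin, had 259, 269 and 464 normalized counts at 0.2, 8 and 64 kPa. The log2 ratio of stiff to soft came to 0.84 (counting interval 0.61 to 1.07), and 0.79 with the length and GC trend subtracted. Ntn1, the classical secreted netrin, had 369, 451 and 573 normalized counts. This is a stiff to soft log2 ratio of 0.63 (counting interval 0.44 to 0.83), or 0.11 with the trend subtracted. Unc5b (chromosome 10, 60598372 to 60667396, minus strand, 17 exons), the most abundant compared guidance gene per length by mean level, had 9042, 10294 and 9705 normalized counts, a narrow range with the intermediate library highest. Its stiff to soft log2 ratio was 0.10 (counting interval 0.06 to 0.14), and -0.39 with the trend subtracted. Unc5c had 657, 707 and 685 normalized counts. Unc5a was low at 47.2, 75.4 and 76.9, with a log2 ratio of 0.69 and a counting interval from 0.16 to 1.27. With the trend subtracted the ratio of Unc5a was 0.23.

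The 2 stiffness steps were then taken separately. Between intermediate and soft no guidance gene reached a log2 ratio of 1, against 0.168% of all genes in either direction and 0.00842% downward, and 43 of the 47 lay above 0, against 53.5% of all genes. With the length and GC trend subtracted 32 of the 47 lay above 0, against 49.1% of all genes, and again none reached 1, against 0.112%. At 0.5 or more, 6 were higher and none was lower, against 3.94% and 0.657% of all genes, 4.6% in all. The 6 were Unc5a (0.67), Sema6c (0.58), Slit3 (0.54), Plxnd1 (0.53), Sema7a (0.52) and Efna5 (0.51). With upper-quartile scaling Plxnd1, Sema7a and Efna5 came to 0.49, 0.49 and 0.48 and 3 were left, and with the trend subtracted Efna5 alone stayed there, against 2.12% of all genes. None was lower by that size after the subtraction, against 0.671%. The median log2 ratio was 0.19 over the guidance genes and 0.01 over all genes, and 0.04 over the guidance genes with the trend subtracted.

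Between stiff and intermediate, Sema3e (1.08), Sema4a (1.07) and Epha2 (1.04) reached a log2 ratio of 1, which is 6.38% of the 47 against 1.25% of all genes. None was lower by that size, against 0.421%. With the trend subtracted Sema3e stayed at 1 (1.15), against 1.24% of all genes, while Sema4a came to 0.98 and Epha2 to 0.91. At 0.5 in size 8 were higher and 2 lower, against 5.42% and 3.42% of all genes, 8.84% in all. The higher ones also included Efnb2 (0.88), Sema4d (0.84), Ntn4 (0.78), Sema3b (0.54) and Ephb2 (0.52), and the lower ones were Sema7a (-0.79) and Epha3 (-0.55). With the trend subtracted 6 were higher and 3 lower, against 4.63% and 3.3% of all genes, and Sema3b (0.43), Ephb2 (0.26) and Epha3 (-0.48) were no longer among them. The lower ones then included Sema7a (-0.91) and Sema4c (-0.59). The median was 0.06 over the guidance genes and 0.01 over all genes, and 27 of the 47 lay above 0, against 51.1% of all genes. With the trend subtracted 24 did, against 49.8%. No guidance gene reached 0.5 in the same direction in both steps, against 1.04% of all genes upward and 0.0421% downward. The nearest was Slit3, with 0.54 and 0.45. At 0.25 in each step 6 did so upward and 1 downward, against 5.73% and 0.707% of all genes. In 17 of the 47 (36.2%) the intermediate library was the highest of the 3, against 23.2% of all genes, and in 1, Efna3, it was the lowest, against 20.9%. These counts are without the trend subtraction, and such shares were not computed with it. With the trend subtracted the first step was below 0 and the second above also for Epha2 (-0.07, 0.91), Ephb2 (-0.35, 0.26) and Plxna1 (-0.11, 0.03). The same held for Plxna4 (-0.26, 0.06) and Ntn1 (-0.01, 0.11). Unc5b, Ephb3, Plxnb1 and Efna2 were then no longer highest at 8 kPa.

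**Figure D5:**
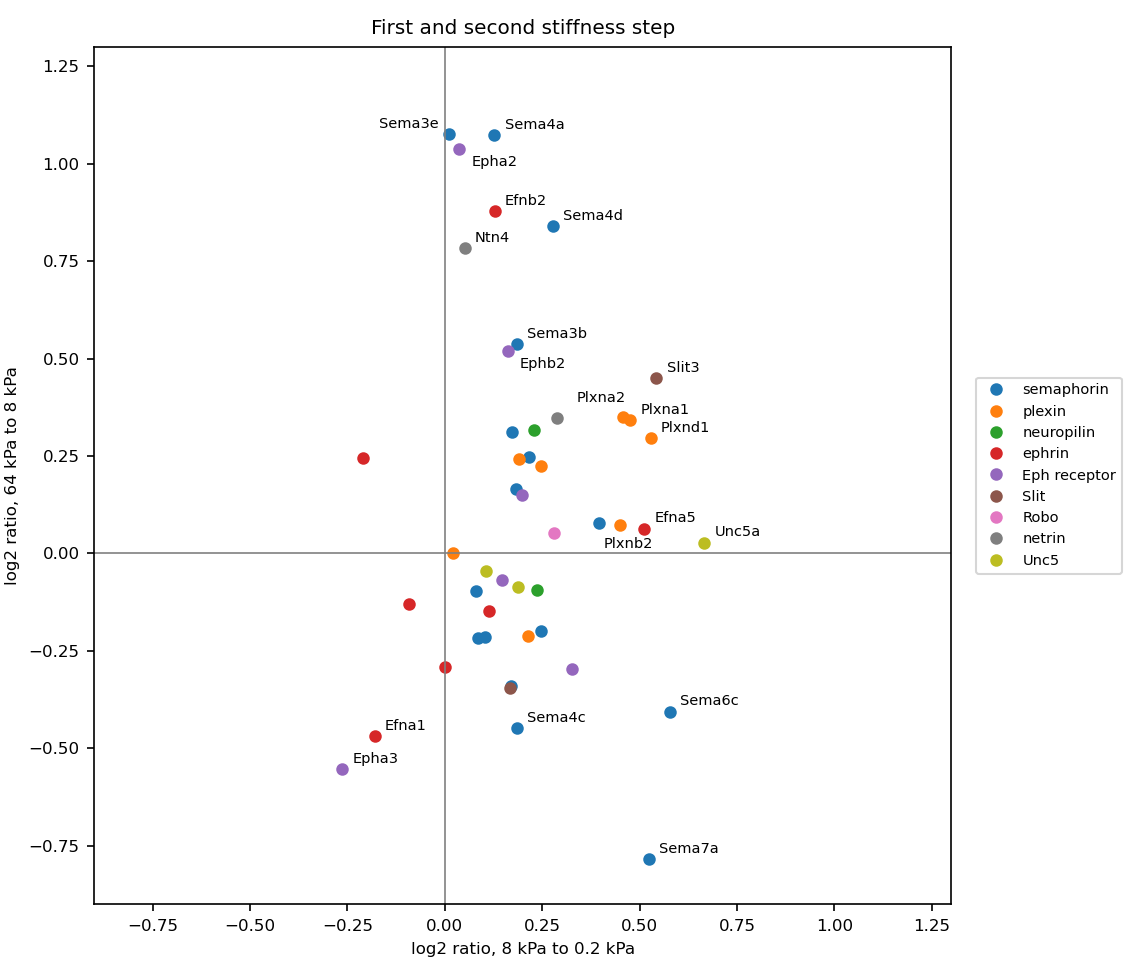
Log2 ratio of the first step (8 to 0.2 kPa, x axis) and of the second step (64 to 8 kPa, y axis) for the 47 guidance genes, coloured by role, which share the 8 kPa library. Sema3e, Sema4a and Epha2 lie near 0 on the x axis and above 1 on the y axis, Slit3 and 3 plexins lie to the upper right, and Sema7a lies at 0.52 and -0.79.

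Other cues, co-receptors and effectors of these pathways were taken from a list of 80 symbols, of which 78 were in the table and 65 had a mean of at least 50. Between stiff and soft 17 of the 65 were higher and 1 was lower by at least 0.5, against 11.8% and 3.77% of all genes, and 3 were higher by at least 1, against 3.22%. With the trend subtracted 9 were higher and 2 lower by at least 0.5, against 7.64% and 3.97% of all genes. Their median log2 ratio was 0.25, or 0.08 after the trend was taken off. The 5 highest with a mean of at least 100 were Inpp5d (1.58), Mical3 (1.38), Cd72 (1.17), Tiam1 (0.92) and Abl1 (0.87). Inpp5d, a lipid phosphatase of blood cells, had 149, 178 and 445 normalized counts at 0.2, 8 and 64 kPa. Cd72, a Sema4d receptor of leukocytes, had 90.2, 131 and 204. With the trend subtracted Inpp5d stood at 1.41 and Cd72 at 1.01. Mical3, an actin-oxidising enzyme of plexin signalling, stood at 0.67 with the trend subtracted, Tiam1, an activator of Rac, at 0.54 and the kinase Abl1 at 0.34. The 5 lowest were Ngef (-0.57), which acts downstream of Epha4, Vegfa (-0.31), a ligand of Nrp1, Nck1 (-0.29), Rasa1 (-0.23) and Ext1 (-0.15). Of the netrin receptors outside the members, Neo1 had 3121, 3469 and 3376 normalized counts, and Dcc had no read.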

How the data were processed

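Poly(A) RNA libraries (TruSeq Stranded mRNA, per the labels' protocols) were sequenced from 3 cultures. The submitters' processing notes name bcl2fastq 2.20.0, STAR 2.7.9a, featureCounts of Subread 2.0.1, DESeq2 1.34.0 and GRCm39, without role or order. The deposited signal values are, per the files' names, DESeq2-normalized counts. All 3 deposited files held the same table. In each column 100.0% of the values above 0 were whole multiples (within 0.01 reads) of the smallest, so reads were recovered by dividing by it.

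Log2 ratios used a pseudocount of 1, which understates the change of low genes. Genes with a mean of at least 50 were compared. Counting intervals were set from each gene's reads in 2 libraries by the exact Clopper-Pearson method at 95%. They hold no variation other than counting error, and PCR copies of a molecule are counted as separate reads. With 1 library per level no p-value was computed. All 65 members matched GENCODE vM39 (GRCm39) by symbol, and lengths are those of canonical transcripts. The alternative correction was a robust local linear trend of the ratio with log2 length and GC content over the 300 nearest genes with a mean of at least 10, checked on simulated data. By rule, values are given for members at a stiff to soft log2 ratio of 0.5 or more in size, for the most abundant of each role, and for the 5 highest and 5 lowest other guidance genes with a mean of at least 100. Further members shown in full were chosen after their values were seen. The members and lists were chosen with earlier results of these data known. Computation used scipy 1.17.1, scikit-learn 1.9.0, pandas 2.3.3 and numpy 2.4.6 under Python 3.11.15.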

Additional observations from a re-analysis of the deposited data

How the results depend on the processing

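Neither a count model nor a fit without a replicate was run. No paired analysis was possible because each level had 1 library. Of 91 alternative values for the counts and medians, 76 stayed within 1.5 times the count or, for a median, between the medians of the members' lower and upper counting limits, and 15 did not. That range is wide for a median. Without a filter the stiff to soft median was 0.1422 in place of 0.3471, and with the trend subtracted the intermediate to soft and stiff to intermediate medians were 0.0387 and 0.0027. The last was 0.028 and 0.0424 with total-read and upper-quartile scaling, in place of 0.064. Subtracting the length and GC trend and removing the filter accounted for 5 each of the 15, and of the 42 named-gene ratios that left their counting interval or turned sign, all did so under the trend subtraction. Between stiff and soft it left 2 members at 1 and 12 at 0.5 in size, with a median of -0.0187. It left 1 member at 0.5 between intermediate and soft and 1 at 1 between stiff and intermediate. It turned the sign of 15 stiff to soft ratios, among them Unc5b (-0.39) and Nrp2 (-0.11) and, of the genes at 0.5 or more, Ephb2 (-0.088), Plxna1 (-0.12) and Plxnb2 (-0.0413). Without a filter on low values, 11, 2 and 9 members reached 1 in the stiff to soft, intermediate to soft and stiff to intermediate comparison, while 11 (intermediate to soft) and 20 (stiff to intermediate) reached 0.5. With a mean of at least 200, 12 members reached 0.5 between stiff and soft and 3 between intermediate and soft. With a mean of at least 10, 5 reached 1 between stiff and intermediate. Upper-quartile scaling left 3 at 0.5 between intermediate and soft. At 0.25 in each step, 7 members moved one way, 6 upward and 1 downward, against 5.73% and 0.707% of all genes. The fewer or more genes compared account by construction for the changes with the filters, and the cause of the others was not tested. Total-read and upper-quartile scaling shifted the stiff to soft ratio of all genes by -0.055 and -0.058. The 26 named genes have 78 ratios, and 36 of these never left the counting interval. Depth limits the genes under about 100 normalized counts most, as the interval of Efna5 shows.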

Other observations

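Epha1, an A-type Eph receptor with a mean of 48.9 normalized counts, lay just under the minimum and was not counted above. Its reads numbered 35 at 0.2 kPa, 35 at 8 kPa and 76 at 64 kPa. Stiff against soft came to 1.10 on the log2 scale (counting interval 0.52 to 1.74), and the gene was named after its value was seen. Exons of Zyx on the opposite strand cover 36.9% of the exonic bases of Epha1, and Zyx had 5245, 6387 and 11503 normalized counts, so the reads of Epha1 might not be told apart from those of Zyx. L1cam, an adhesion protein that acts as a co-receptor of Nrp1, had 27.7, 34.9 and 81.0 normalized counts, with a stiff to soft log2 ratio of 1.52, and was also named after its value was seen.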
